A study of Mus musculus with 7 samples.

Results

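Heat shock proteins and their co-chaperones were described in RNAseq of muscle fibers from E17.5 fetuses, 4 WT and 3 homozygous dyW/dyW (termed dyW), with 1 library for each fetus. The genes were taken by symbol: the numbered *Hsp90*, *Hspa*, *Hspb*, *Hspd*, *Hspe* and *Hsph* genes, *Dnaja*, *Dnajb* and *Dnajc*, the *Cct* genes with *Tcp1*, and *Bag1* to *Bag6*, with pseudogenes left out. Of the 31531 genes in the table, 83 were chosen this way. They fall into 9 families: 3 Hsp90 genes, 13 Hsp70 and Hsp110 genes, 2 genes of the mitochondrial chaperonin, 9 of the TRiC chaperonin, 7 small Hsp genes, 4 *Dnaja*, 12 *Dnajb*, 27 *Dnajc* and 6 *Bag* genes. The dyW allele disrupts *Lama2*, which encodes the laminin α2 chain, and mice homozygous for it model LAMA2-CMD. Both groups came from crosses of dyW heterozygous mice, so WT and mutant fetuses share that background. Epaxial muscles, which lie along the back, were digested in warm buffer with dispase and collagenase, and the material kept by a strainer was lysed as fibers. Libraries were made with SMART-seq2, which amplifies full-length cDNA by PCR without molecular identifiers, so that a limit set by a read count covers counting error only.

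Chaperones bind unfolded or newly made proteins and release them by cycles of ATP hydrolysis. Hsp70 proteins take their substrates from J-domain proteins, encoded by the *Dnaja*, *Dnajb* and *Dnajc* genes, which stimulate the Hsp70 ATPase, and let go of them with the help of exchange factors such as the Hsp110 and Bag proteins. Hsp90 acts later on proteins that are already partly folded, the ring-shaped TRiC folds actin and tubulin, and small Hsp proteins hold unfolded protein without ATP. In striated muscle these families fold myosin and keep Z-disc proteins in repair, and the heat-inducible members are switched on by Hsf1 within minutes of heat or other protein stress.

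Depth and composition differed between the libraries, and 3 libraries stood apart. Reads counted on genes ranged from 470804 to 2220813 in the WT libraries and from 3663905 to 18297106 in the dyW libraries, so 1 read was worth 2.05 to 5.33 normalized counts in WT and 0.0974 to 0.488 in dyW. *Lama2* was at 90.6 to 111 normalized counts in WT and at 4.29 and 6.07 in dyW1 and dyW2, but at 139.7 in the third dyW library, which goes against its label and is termed the library labelled dyW3. The summed level of 15 myofiber markers was 3140 to 96936 in WT and 71.9 to 12249 in dyW. In dyW1, with a sum of 71.9, 7 of these 15 markers were at 0, among them *Des*, *Ckm* and *Actn2*, and *Acta1* was at 4.09. WT1, the shallowest library, had the lowest myofiber sum in its group and 415687 normalized counts of the cartilage collagen *Col2a1*. The sum of 9 fibroblast and tendon markers was 4196 to 15188 in WT and 21955 to 33723 in dyW, without overlap, and that of 10 housekeeping genes was 16276 to 61360 in WT and 6430 to 14571 in dyW. The part of tissue composition in the results on chaperones was not tested, and in bulk RNA fewer cells of a type cannot be told apart from less RNA per cell.

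Most chaperone genes did not pass the test between genotypes, and those that did moved in both directions. Genes with a mean of at least 5 normalized counts were compared on log2(normalized count + 1) with limma, adjusting *P*-values over 25791 genes, and a gene is termed called at an adjusted *P*-value under 0.01 and a log2 fold change over 1.5 either way. Of 79 chaperone genes that could be tested, 2 were called higher in dyW (2.53%), *Hsp90aa1* and *Dnaja1*, against 0.0659% of all genes tested (17 genes). Another 4 were called lower (5.06%), *Dnajb5*, *Dnajc6*, *Dnajc22* and *Dnajb8*, against 18.7% of all genes. All 4 passed the filter through WT alone, with dyW means under 5, so that the filter itself fixed their direction. This held for 7 of the 79 genes, and no gene passed through dyW alone. With the adjusted *P*-value at 0.05, 6 were higher (7.59%, against 1% of all genes) and 8 were lower (10.1%, against 29.6%), of which 6 had passed the filter through WT alone. The counts at 0.05 moved with the scaling: with the same total 19 of 78 were higher and 4 lower (4.56% and 17.9% of all genes, limma), and with quantile normalization 0 were higher or lower (0.0659% and 0.318%, limma; 13 and 4 at an unadjusted *P*-value under 0.05, against 8.59% and 6.86% of all genes). The dyW values lay above every WT value for 11 of the 79 (13.9%, against 3.28% of all genes) and below every WT value for 11 (13.9%, against 31.5%). The 11 below include all 7 genes that had passed the filter through WT alone, whose direction the filter fixed. The calls at 0.01 were sensitive to single libraries: leaving out any of WT1, WT2, WT4, dyW1, dyW2 or the library labelled dyW3 left 0 called higher by limma (7 to 15 at an unadjusted *P*-value under 0.05), and leaving out WT3 left 1, *Hsp90aa1*. Of all genes, 0 were called higher without WT2, WT4 or dyW2 and 3 without dyW1, but 13 were without WT1 and 21 without the library labelled dyW3. With 1 library left out, the log2 fold change of 33 of the 79 genes took either sign, and none of these 33 had passed at 0.05. At 0.05, the counts with 1 library left out were 2 to 8 higher and 2 to 11 lower (limma; 0.321% to 1.47% and 22.1% to 41.4% of all genes). The fewest were higher without WT2 or WT4 (2 each) or dyW2 (3), and the fewest lower without WT1 (2), WT4 (4) or WT2 (5). Without the library labelled dyW3, 6 were higher and 10 lower. With the replicate block 0 were higher or lower (0% and 0.00775%, limma; 7 and 7 at an unadjusted *P*-value under 0.05, against 1.16% and 33.1% of all genes), and 5 were higher and 5 lower of 75 tested without both WT1 and dyW1 (0.809% and 30.8%).

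The fold changes followed the level of the genes. The median log2 fold change of dyW over WT was 0.11 for the 79 chaperone genes and −1.99 for all genes tested. When the libraries were scaled to the same total the medians were 1.23 and −0.98, and with quantile normalization they were 0.48 and 0.06. Among genes with a mean of 50 to 1000 normalized counts, the log2 fold change was positive for 39 of 45 chaperone genes (86.7%) and for 56.2% of all genes, with medians of 0.75 and 0.21. In this range the dyW values lay above every WT value for 11 of 45 chaperone genes (24.4%) and for 12.4% of all genes. Among genes with a mean of 5 to 50, the median was −1.70 for 31 chaperone genes and −2.58 for all genes, and the log2 fold change was positive for 9.68% and 9.47%. All 4 genes called lower lay in this low range. At an unadjusted *P*-value under 0.05 (limma), 2.81% of all genes were higher and 41.5% lower. With the filter at a mean of 50 these shares were 11.7% and 8.77%. Of the chaperone genes, 13 were higher and 12 lower of 79, and 15 and 1 of 48 with that filter. Chaperone genes together took 0.112% to 0.422% of the normalized counts in WT and 0.626% to 1.07% in dyW, without overlap, but the shares overlapped once the 10 most abundant genes of each library were left out (0.469% to 1.04% in WT, 0.803% to 1.71% in dyW).

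**Figure D1:**
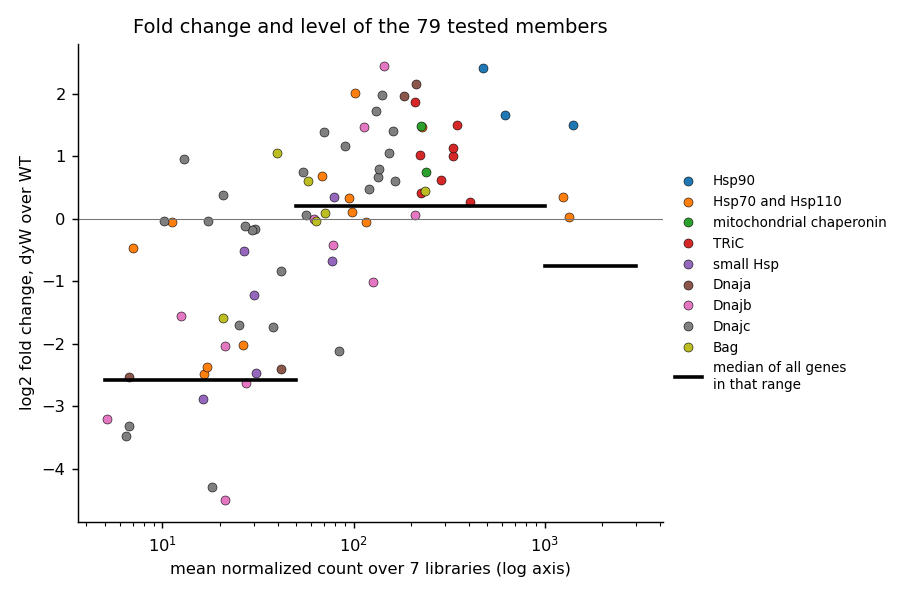
Log2 fold change of dyW over WT (vertical axis) against the mean normalized count over the 7 libraries (horizontal log axis) for the 79 tested chaperone genes, 1 point per gene, colored by family. Black bars mark the median of all genes tested in the same range of levels (−2.58, 0.21 and −0.76). The points lie mostly above 0 at levels of 50 to 1000 and mostly below 0 at lower levels.

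The Hsp90 genes had the highest median fold change of the families. *Hsp90aa1*, on chr12:110656842-110669166 of GRCm39 (minus strand), encodes the stress-inducible cytosolic Hsp90, which in muscle also takes part in folding myosin. Its normalized counts were 197, 146, 261 and 94.4 in WT1 to WT4, and 780, 899 and 941 in dyW1, dyW2 and the library labelled dyW3. All 3 dyW libraries lay above all WT libraries. WT averaged 174 ± 71.1 (SD, n = 4) and dyW 873 ± 83.6 (SD, n = 3), 5.01 times as much, with a log2 fold change of 2.41 ± 0.50 (SE) and an adjusted *P*-value of 0.00679 (limma). Without the library labelled dyW3 the log2 fold change was 2.35 (adjusted *P*-value 0.0175, limma), and without both WT1 and dyW1 it was 2.58 (0.0224, limma). With the same total it was 3.55 (0.0193), with quantile normalization 1.80 (0.180).

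*Hsp90ab1*, the constitutive cytosolic Hsp90, had the highest level per kb of the family (299 in WT and 816 in dyW), with 416, 655, 1489 and 673 normalized counts in WT1 to WT4 and 1717, 3448 and 1449 in the dyW libraries in the same order. WT3 lay above the library labelled dyW3, so the groups overlapped, and the log2 fold change of 1.5 ± 0.54 (SE) did not pass the test (adjusted *P*-value 0.0635, limma). It passed at 0.05 without WT3 (1.85, adjusted *P*-value 0.0156, limma) and with the same total (0.0193), but not without any of the other 6 libraries (0.0723 to 0.206; 1.12 without dyW2) or with quantile normalization (0.230). *Hsp90b1*, the Hsp90 of the endoplasmic reticulum (also called Grp94), was at 426, 183, 671 and 148 in WT and at 1030, 1159 and 710 in dyW. Its groups did not overlap, with a log2 fold change of 1.67 ± 0.62 (SE) that likewise missed the threshold (adjusted *P*-value 0.0683, limma). It too passed at 0.05 without WT3 (2.06, adjusted *P*-value 0.0221, limma) and with the same total (0.0246), but not without any of the other 6 libraries (0.0793 to 0.179) or with quantile normalization (0.378). The median of the 3 genes was 1.67, and it stayed positive with the same total (2.82) and with quantile normalization (1.55).

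**Figure D2:**
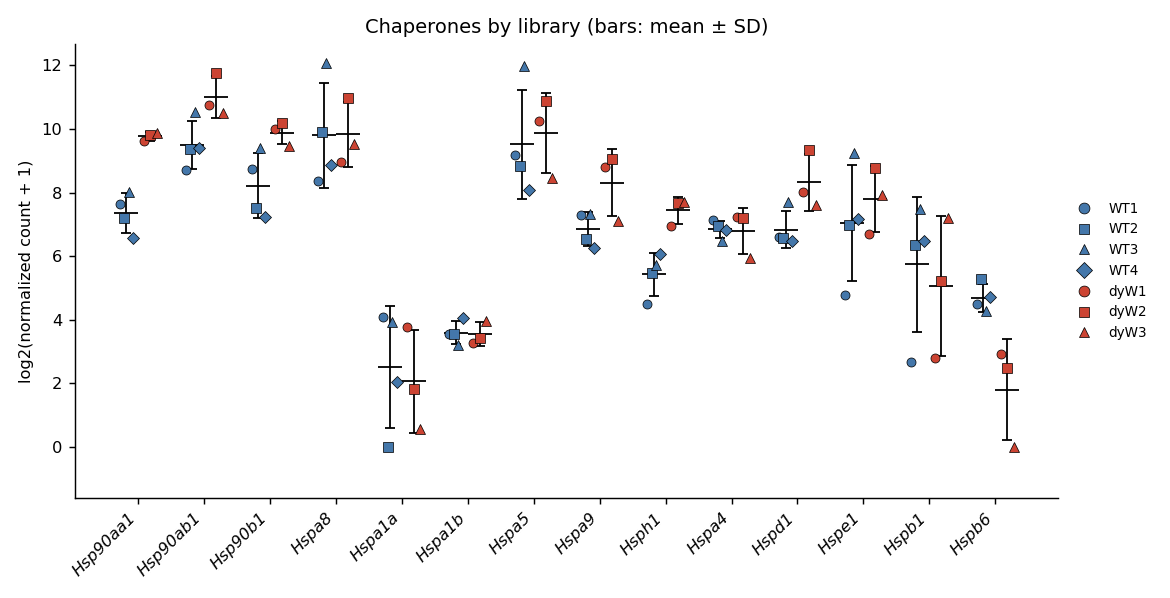
Log2(normalized count + 1) of 14 chaperone genes in each library, WT in blue and dyW in red, with 1 symbol per library and bars for the group mean ± SD. The red points of *Hsp90aa1*, *Hsp90b1* and *Hsph1* lie above all blue points and those of *Hspb6* below them, whereas both colors overlap for *Hspa8*, *Hspa5* and *Hspb1*.

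Of the Hsp70 and Hsp110 genes, 0 of 13 were called by limma or by voom, and 2 were higher and 1 lower at an unadjusted *P*-value under 0.05, against 2.81% and 41.5% of all genes. With the filter at a mean of 50, these shares of all genes were 11.7% and 8.77%. *Hspa8*, the constitutive Hsc70, had the highest mean level per kilobase of transcript in WT (633 normalized counts per kb, but 244 without WT3), followed by *Hsp90ab1* (299), *Hspe1* (292) and *Hspa5* (268). Without WT3 the last 3 had means of 215, 126 and 87.6, and *Hsp90b1*, at 89.3, lay just above *Hspa5*. In dyW the order of levels per kb was *Hsp90ab1* (816), *Hspa8* (454), *Hsp90b1* (341), *Hspe1* (335), *Hsp90aa1* (247) and *Hspa5* (233). Neighbors in either order overlapped in their ranges over libraries, and in WT1 and WT4 *Hsp90ab1* lay above *Hspa8* per kb (154 against 136, and 249 against 196). *Hspa8* was at 325, 960, 4304 and 469 normalized counts in WT1 to WT4 and at 502, 2021 and 738 in dyW. The groups overlapped fully and the log2 fold change was 0.03 ± 0.90 (SE). That value rests on single libraries: it was 0.78 (adjusted *P*-value 0.401, limma) without WT3, which held the highest count of all, and −0.55 without dyW2.

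*Hspa5*, which encodes BiP, the Hsp70 of the endoplasmic reticulum, had the same shape. Its normalized counts were 576, 458, 4004 and 267 in WT and 1206, 1904 and 350 in dyW, with a log2 fold change of 0.35 ± 0.96 (SE), or 1.17 (adjusted *P*-value 0.246, limma) without WT3 and −0.17 without dyW2. *Hspa9*, the Hsp70 of mitochondria, was at 155, 91.7, 158 and 75.5 in WT and at 443, 533 and 136 in dyW. Here dyW1 and dyW2 lay above all WT libraries and the library labelled dyW3 did not (log2 fold change 1.47 ± 0.64 SE, adjusted *P*-value 0.111, limma). Without that library the log2 fold change of *Hspa9* was 2.08 and passed at 0.05 (adjusted *P*-value 0.0260, limma). It did not pass without any of the other 6 (0.125 to 0.276), and was lowest without dyW2 (1.10).

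The heat-inducible pair *Hspa1a* and *Hspa1b* had low counts in every library. These genes are near-identical neighbors, and only uniquely mapped reads were counted. Reads that fit both genes equally were therefore left out, so the counts may understate their RNA, and so may their ratio to *Hspa8*. The size of this loss was not tested. *Hspa1a* was at 0 to 16 normalized counts in WT and 0.488 to 12.8 in dyW, and *Hspa1b* at 8.21 to 15.7 in WT and 8.57 to 14.7 in dyW. Their log2 fold changes were −0.46 ± 1.2 (SE) and −0.04 ± 0.66 (SE). In WT these values rest on 7 reads or fewer per library.

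*Hsph1* and *Hspa4* encode Hsp110 proteins, exchange factors that release ADP from Hsp70. *Hsph1*, the heat-inducible one, was at 21.3, 43.1, 51.3 and 66.1 normalized counts in WT and at 122, 203 and 209 in dyW. All dyW libraries were above all WT libraries, and the log2 fold change of 2.01 ± 0.61 (SE) passed at 0.05 (adjusted *P*-value 0.0352, limma), but not without the library labelled dyW3 (1.88, adjusted *P*-value 0.0555, limma) nor without WT1, WT2, WT4 or dyW2 (0.0529 to 0.0866). Its WT reads were 0.883 times those of odorant and vomeronasal receptor genes, which muscle is not known to use, for the same exon length. *Hspa4* was at 139, 121, 88.2 and 113 in WT and at 148, 145 and 61.0 in dyW, with a log2 fold change of −0.06 ± 0.57 (SE). The ratio of *Hsph1* to *Hspa4* within a library was 0.154 to 0.583 in WT and 0.828 to 3.42 in dyW, without overlap. The difference of 2.10 on the log2 scale had the smallest *P*-value that the exact two-sided permutation test over the 35 ways to divide the libraries allows, 0.0571, and 0.171 after adjustment over 6 ratios. The test doubles the smaller tail, so with 4 against 3 libraries it cannot go below 0.0571. The other genes of the family were *Hspa2*, *Hspa4l*, *Hspa12a*, *Hspa12b*, *Hspa13* and *Hspa14*, with WT means of 19.8 to 77.0 normalized counts. None of their differences passed at 0.05, and of these 6 genes only *Hspa12b* did not overlap, lying lower in dyW.

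The mitochondrial chaperonin is built of *Hspd1* (Hsp60) and its lid *Hspe1* (Hsp10). *Hspd1* was at 96.0, 94.4, 207 and 88.1 normalized counts in WT and at 259, 646 and 193 in dyW, and *Hspe1* was at 26.7, 124, 611 and 142 in WT and at 103, 435 and 239 in dyW. For both genes the library labelled dyW3 lay below WT3. The log2 fold changes were 1.48 ± 0.62 (SE) for *Hspd1* (adjusted *P*-value 0.0975, limma) and 0.75 ± 1.01 (SE) for *Hspe1* (0.597), which became 1.49 without WT3 and was near 0 without WT1. The ratio of *Hspd1* to *Hspe1* overlapped between groups. These genes lie head to head on opposite strands and their annotated transcripts overlap, and the strand setting of the counting is not given in the sources used here, so their reads may not be fully separated.

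Promoters were searched for the binding motif of Hsf1, the heat shock factor, and for the endoplasmic reticulum stress element. The 250 bases before the start of the Ensembl canonical transcript were read from GRCm39. A heat shock element was taken as 3 units with 2 free bases between them, either GAA, TTC and GAA or TTC, GAA and TTC, each the reverse complement of the other, so that both strands were covered, and matches may overlap. The stress element was CCAAT, 9 free bases and CCACG, on either strand. Heat shock elements were found in 2 of 83 promoters of the chaperone genes (2.41%) and in 76 of 21757 promoters of all protein-coding genes (0.349%), and stress elements in 3 of 83 (3.61%) and 25 of 21757 (0.115%). The matches are given with 5 bases on each side, 5′ to 3′ on the strand of the gene, with the motif in capitals. In *Hspd1* and *Hspe1*, which share 1 promoter, 2 overlapping heat shock elements make a run of 18 bases, read on opposite strands.
*Hspd1*, chr1:55127213-55127240, minus strand: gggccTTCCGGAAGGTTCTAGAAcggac
*Hspe1*, chr1:55127213-55127240, plus strand: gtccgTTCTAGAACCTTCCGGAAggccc
*Hspa5*, chr2:34662032-34662060, plus strand: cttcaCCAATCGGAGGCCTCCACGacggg
*Dnajc3*, chr14:119175234-119175262, plus strand: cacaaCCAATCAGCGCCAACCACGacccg
*Hsp90b1*, chr10:86541497-86541525, minus strand: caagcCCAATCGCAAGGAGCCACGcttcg
*Hsp90b1*, chr10:86541392-86541420, minus strand: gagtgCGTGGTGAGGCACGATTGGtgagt
The motif began 52 bases before the start in *Hspd1*, 73 in *Hspe1*, 67 in *Hspa5*, 106 in *Dnajc3*, and 142 and 37 in *Hsp90b1*. Log2 fold changes of the 3 genes with a stress element were 1.67, 0.35 and 1.41 for *Hsp90b1*, *Hspa5* and *Dnajc3*, none of them past the test. The windows of *Hsp90aa1*, *Dnaja1*, *Hsph1* and *Dnajb9* held neither of these letter patterns. Those of the heat-inducible *Hspa1a*, *Hspa1b* and *Dnajb1* and of *Hspb1* and *Bag3* held neither as well. The window of *Hsp90aa1* (chr12:110662882-110663131) lies inside its annotated gene. The lack of a match in 250 bases therefore does not show that a gene lacks such an element. A match is a description of the letters and not a measured binding site. Exons of other annotated transcripts lie over the windows shown for *Hspd1*, *Hspa5* and the nearer *Hsp90b1* element.

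**Figure D3:**
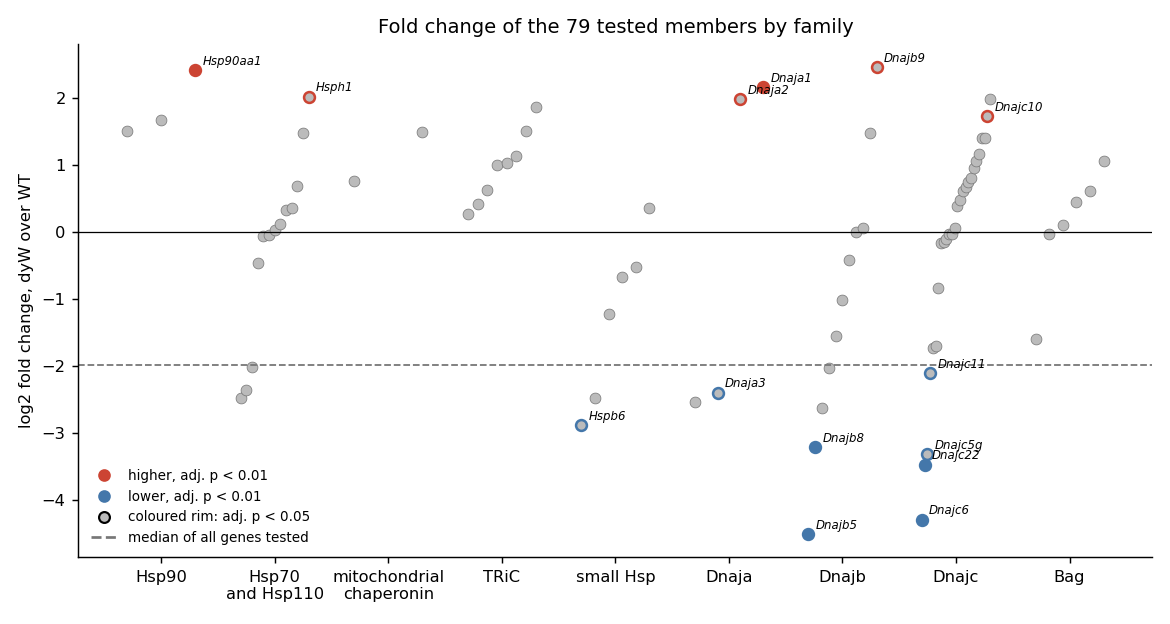
Log2 fold change of dyW over WT (vertical axis) for each of the 79 tested chaperone genes, grouped by family and ordered within it. Filled red and blue points were called at an adjusted *P*-value under 0.01, colored rims mark those under 0.05, and the dashed line marks the median of all genes tested (−1.99). The 3 Hsp90 and 8 TRiC genes all lie above 0 on this scale (3 of the TRiC genes lie below it with quantile normalization), and the lowest points are *Dnajb5* and *Dnajc6*.

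The TRiC chaperonin is a double ring of 8 different subunits, encoded by *Tcp1*, *Cct2* to *Cct5*, *Cct6a*, *Cct7* and *Cct8*. The log2 fold changes were all positive with the deposited scaling, from 0.27 for *Cct7* to 1.87 for *Cct2*, with a median of 1.01, but *Cct3*, *Cct7* and *Tcp1* were negative with quantile normalization (−0.33, −0.25 and −0.30), and *Cct3* and *Cct7* without dyW2 (−0.19 and −0.89, family median 0.55). The median stayed positive with the same total (2.16) and with quantile normalization (0.32), where the medians of all genes were −0.98 and 0.06. By limma 0 of 8 subunits were called and by voom 0. At an unadjusted *P*-value under 0.05, 1 was higher, against 2.81% of all genes, or 11.7% with the filter at a mean of 50. That subunit was *Cct2*, at 53.3, 64.7, 146 and 107 normalized counts in WT and 161, 637 and 305 in dyW, the 1 subunit whose groups did not overlap (log2 fold change 1.87 ± 0.66 SE, adjusted *P*-value 0.0609, limma). The summed TRiC genes had 773 to 3514 normalized counts in WT and 1525 to 6033 in dyW, with dyW1 and the library labelled dyW3 (2284) below WT3.

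The subunits are incorporated in equal number, but their RNA levels per kilobase of canonical transcript were not equal. The highest was 2.25 to 6.73 times the lowest within a library. The lowest subunit was *Cct4* in WT1, WT4, dyW1 and dyW2, *Cct2* in WT2 and WT3, and *Cct7* in the library labelled dyW3. The coefficient of variation over the 8 subunits was 28.9% to 61.0% in WT and 32.0% to 44.0% in dyW. *Cct6b*, the testis form of the *Cct6a* subunit, had means of 5.33 in WT and 2.44 in dyW and was below the filter.

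*Dnaja1* and *Dnaja2*, the J-domain proteins that hand unfolded proteins to cytosolic Hsp70, were both higher in dyW. *Dnaja1*, on chr4:40722056-40737149 (plus strand), was at 96.0, 89.0, 94.4 and 62.9 normalized counts in WT1 to WT4 and at 458, 329 and 361 in dyW. The groups were far apart for their spread, where WT averaged 85.6 ± 15.4 (SD, n = 4) and dyW 383 ± 67.0 (SD, n = 3), and the log2 fold change was 2.15 ± 0.49 (SE; adjusted *P*-value 0.00964, limma). It was 2.19 (0.0165, limma) without the library labelled dyW3 and 2.08 (0.0293, limma) without both WT1 and dyW1. *Dnaja2* was at 64.0, 78.2, 119 and 66.1 in WT and at 234, 388 and 340 in dyW, again without overlap, and its log2 fold change of 1.97 ± 0.52 (SE) passed at 0.05 (adjusted *P*-value 0.0191, limma), but not without WT2, WT4 or dyW2 (0.0543 to 0.0575). *Dnaja1* passed at 0.05 with any 1 library left out (0.0102 to 0.0313). It did not pass with quantile normalization (log2 fold change 1.54, adjusted *P*-value 0.261, limma), with the replicate block (0.0888, limma) or by voom (0.0585). *Dnaja1* reads in WT were 1.90 times, and *Dnaja2* reads 5.30 times, what those receptor genes held for the same exon length.

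The other *Dnaja* genes lay lower in dyW. *Dnaja3* (Tid1), a mitochondrial partner of *Hspa9*, was at 58.6, 59.3, 61.5 and 69.2 in WT and at 10.1, 27.4 and 4.40 in dyW. All dyW values were below all WT values, and the log2 fold change of −2.40 ± 0.72 (SE) passed at 0.05 (adjusted *P*-value 0.0331, limma), though not without any 1 of WT1, WT2, WT3, WT4 or dyW1 (0.0572 to 0.103, limma). Its WT reads were 1.32 times the receptor level, and with that level subtracted the log2 fold change was −0.59 (adjusted *P*-value 0.844, limma). *Dnaja4* also did not overlap, with dyW1 just below WT3, but rests on 2 to 4 reads in each WT library and did not pass (−2.53 ± 0.88 SE, adjusted *P*-value 0.0574, limma). It passed the filter through WT alone, so that the filter fixed its direction, and its WT reads were 0.243 times the receptor level. The median of the 4 *Dnaja* genes was −0.21 and changed sign with the same total (0.90) and with quantile normalization (0.98).

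*Dnajb1*, the heat-inducible Hsp40 that works with Hsp70 in the stress response, did not follow *Dnaja1* and *Dnaja2*. It was at 293, 111, 408 and 75.5 normalized counts in WT and at 261, 183 and 133 in dyW, all 3 within the WT range, with a log2 fold change of 0.06 ± 0.70 (SE). The ratio of *Dnajb1* to *Dnaja2* was 1.14 to 4.58 in WT and 0.392 to 1.11 in dyW, without overlap but by a narrow margin between WT4 and dyW1. The difference was −1.93 on the log2 scale, with the smallest *P*-value the exact permutation test allows (0.0571, and 0.171 after adjustment over the 6 ratios). The ratio of *Hspa1a* and *Hspa1b* together to *Hspa8* was 0.00524 to 0.0820 in WT and 0.00607 to 0.0425 in dyW, and that of *Hsp90aa1* to *Hsp90ab1* was 0.140 to 0.474 in WT and 0.261 to 0.649 in dyW. Both overlapped, with differences of −0.27 and 0.92 on the log2 scale (exact permutation *P*-values 0.914 and 0.171).

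**Figure D4:**
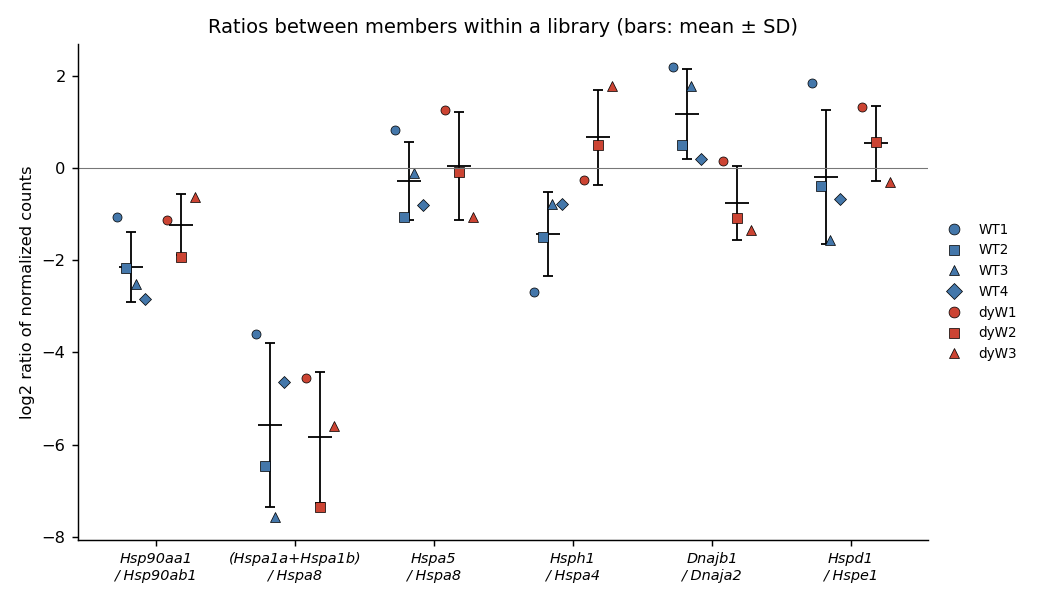
Log2 ratio of the normalized counts of 2 chaperone genes (or of a summed pair to 1 gene) within each library, WT in blue and dyW in red, with bars for the group mean ± SD. The groups do not overlap for *Hsph1* to *Hspa4* (higher in dyW) and *Dnajb1* to *Dnaja2* (lower in dyW), and overlap for the other 4 ratios.

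Of the J-domain genes of the endoplasmic reticulum described here, 2 differed in the same direction as *Dnaja1* and passed at 0.05. Not every such gene is described. *Dnajb12* and *Dnajb14*, also of the reticulum, went the other way without passing (log2 fold changes −2.63 and −1.01, adjusted *P*-values 0.0974 and 0.231, limma). *Dnajb9* (ERdj4), which binds BiP and is induced by unfolded protein in the reticulum, was at 69.3, 29.7, 75.9 and 25.2 normalized counts in WT and at 414, 225 and 165 in dyW. The lowest dyW library lay above the highest WT library, and the log2 fold change of 2.45 ± 0.66 (SE), the largest of the chaperone genes, passed at 0.05 (adjusted *P*-value 0.0204, limma). It missed 0.05 without WT2, WT4 or dyW1 (adjusted *P*-values 0.0592 to 0.0659, limma) and without both WT1 and dyW1 (2.29, 0.0573). *Dnajc10* (ERdj5), a reductase that opens disulfide bonds of misfolded proteins, was at 64.0, 59.3, 80.0 and 59.8 in WT and at 219, 231 and 203 in dyW. Both groups were narrow, and the log2 fold change of 1.72 ± 0.50 (SE) passed at 0.05 (adjusted *P*-value 0.0281, limma), but not without WT2, WT4, dyW1 or dyW2 (adjusted *P*-values 0.0512 to 0.0785, limma). *Dnajc3* (P58IPK) was at 37.8 to 129 in WT and 96.2 to 432 in dyW (log2 fold change 1.41 ± 0.71 SE, adjusted *P*-value 0.161, limma). *Dnajb11* (ERdj3) was at 22.0 to 75.9 in WT, at 99.1 and 271 in dyW1 and dyW2, and at 0 in the library labelled dyW3.

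In the list of 20 other genes of reticulum folding and the unfolded protein response, 0 were called in either direction by limma or voom, with 2 higher and 0 lower at an unadjusted *P*-value under 0.05, against 2.81% and 41.5% of all genes. The shares of all genes were 11.7% and 8.77% with the filter at a mean of 50. *Canx* (calnexin), a lectin chaperone, was the 1 gene past 0.05 after adjustment, at 251, 178, 232 and 91.3 normalized counts in WT and 522, 511 and 631 in dyW (log2 fold change 1.65, adjusted *P*-value 0.0405, limma), though it missed 0.05 without WT2, WT4 or any dyW library (0.0737 to 0.103). *Ddit3* and *Hyou1*, a target of the response and a reticulum Hsp110, had log2 fold changes of 1.19 and −1.06 with adjusted *P*-values of 0.350 and 0.282 (limma). The median of the list was 0.50.

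**Figure D5:**
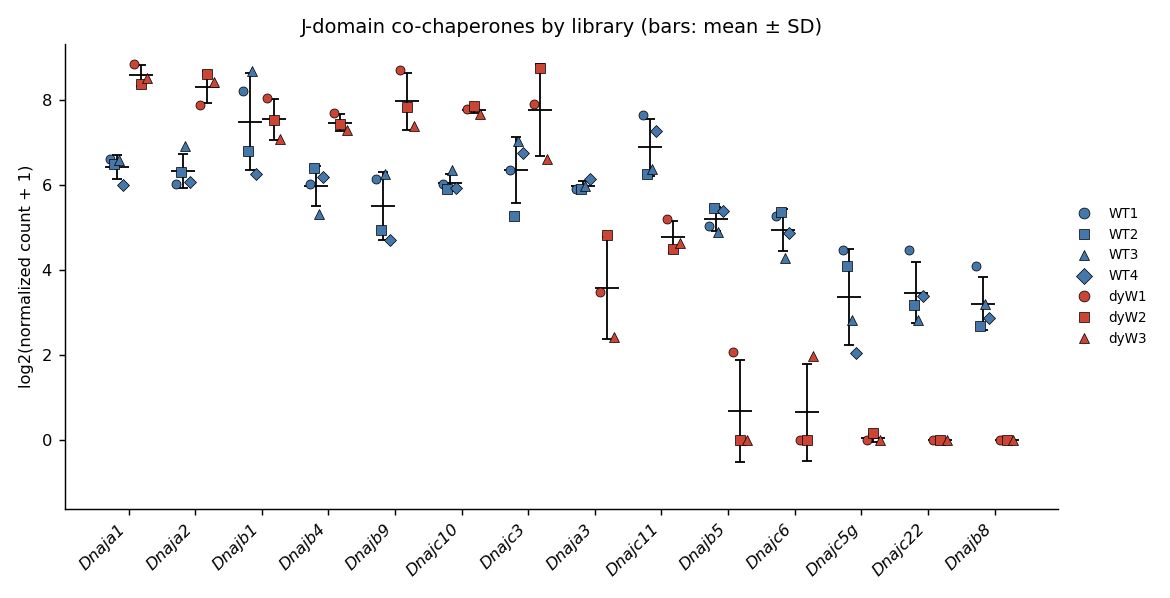
Log2(normalized count + 1) of 14 J-domain co-chaperone genes in each library, WT in blue and dyW in red, with bars for the group mean ± SD. *Dnaja1*, *Dnaja2*, *Dnajb4*, *Dnajb9* and *Dnajc10* lie higher in every dyW library, and *Dnaja3*, *Dnajc11*, *Dnajb5*, *Dnajc6*, *Dnajc5g*, *Dnajc22* and *Dnajb8* lower in every dyW library than in any WT library.

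The 4 genes called lower were J-domain genes of low level. *Dnajb5*, a relative of *Dnajb1* known from heart and skeletal muscle, was at 32.0, 43.1, 28.7 and 40.9 normalized counts in WT1 to WT4, at 3.22 in dyW1, and at 0 in dyW2 and the library labelled dyW3 (log2 fold change −4.51 ± 0.78 SE, adjusted *P*-value 0.00411, limma). *Dnajc6* (auxilin), which uncoats clathrin vesicles and is best known from neurons, was at 37.3, 40.5, 18.5 and 28.3 in WT, at 0 in dyW1 and dyW2, and at 2.93 in the library labelled dyW3 (−4.29 ± 0.79 SE, adjusted *P*-value 0.00454, limma). *Dnajc22* and *Dnajb8*, the latter best known from testis, had no read in any dyW library. *Dnajc22* was at 21.3, 8.09, 6.15 and 9.44 in WT, with a mean 15.8 times the mean limit that 3 reads in each dyW library set. *Dnajb8* was at 16, 5.39, 8.21 and 6.29, 12.6 times that limit. The 3-read limit was 0.292 in dyW1, 0.379 in dyW2 and 1.47 in the library labelled dyW3. These folds take the WT means as exact and are not lower bounds. Without the library labelled dyW3, *Dnajb5*, *Dnajc6* and *Dnajc22* were still called by limma and *Dnajb8* was not (adjusted *P*-value 0.0113). In reads, these values were small: 49 WT reads in all for *Dnajb5*, 40 for *Dnajc6*, 13 for *Dnajc22* and 11 for *Dnajb8*.

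The level of the receptor genes moved with these results. Over 1208 such receptor genes, the median number of reads per kb was 0.632 to 2.48 in WT, 0 in dyW1 and dyW2, and 1.07 in the library labelled dyW3. WT reads on *Dnajb5*, *Dnajc6*, *Dnajc22* and *Dnajb8* were 1.21, 0.680, 0.614 and 1.16 times what the receptor genes held for the same exon length, against 8.01 times for *Hsp90aa1*. When the receptor level was subtracted, 0 of 69 chaperone genes left above the filter were called in either direction by limma, with 20 higher and 0 lower at an unadjusted *P*-value under 0.05, against 17.5% and 7.98% of all genes. The median log2 fold change in that setting was 0.92 over the 17183 genes tested and 1.87 over the chaperone genes. At 0.05, *Hsph1* and *Dnajb4* were higher and 0 genes lower (1.97% and 0.652% of all genes). WT reads of these genes were 0.883 and 1.04 times the receptor level, so that the subtraction left WT near 0 and their fold depends on the pseudocount. The log2 fold changes of *Hsp90aa1* and *Dnaja1* were then 2.67 (adjusted *P*-value 0.0816, limma) and 3.50 (0.0689, limma).

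At 0.05, 3 further genes besides *Dnaja3* were lower in dyW: *Dnajc11*, *Dnajc5g* and the small Hsp gene *Hspb6*. *Dnajc11*, which takes part in building mitochondrial cristae, was at 197, 75.5, 82.1 and 154 normalized counts in WT and at 35.8, 21.5 and 23.9 in dyW, and it had the highest WT level per kb of these genes, 40.3 (log2 fold change −2.11 ± 0.62 SE, adjusted *P*-value 0.0302, limma), and it missed 0.05 without WT1, WT2, WT4 or dyW2 (0.0508 to 0.0989, limma). Its WT reads were 1.76 times the receptor level, and with that level subtracted the log2 fold change was −0.06 (adjusted *P*-value 0.983, limma). *Dnajc5g*, a testis relative of the synaptic chaperone *Dnajc5*, had 14 WT reads and 1 dyW read in all (log2 fold change −3.31 ± 0.76 SE, adjusted *P*-value 0.0104, limma), and like *Hspb6* it passed the filter through WT alone. *Dnajc5* itself was at 45.8 to 64.0 in WT and 105 to 170 in dyW, above without overlap but not past the test (log2 fold change 1.16 ± 0.53 SE, adjusted *P*-value 0.126, limma). Of the remaining *Dnajb* and *Dnajc* genes, the dyW values of *Dnajb4* and *Dnajc2* lay above all WT values and those of *Dnajb2* below them, without passing at 0.05 (adjusted *P*-values 0.0676, 0.105 and 0.0502, limma). *Dnajb3* and *Dnajc30* were below the filter.

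Small Hsp genes are abundant in mature striated muscle, where they guard filaments and the Z-disc. *Hspb1* (Hsp25) was at 5.33, 80.9, 178 and 88.1 normalized counts in WT and at 5.94, 35.9 and 146 in dyW. The lowest value of each group was in WT1 and dyW1, the libraries with the lowest myofiber sums, and the log2 fold change was −0.68 ± 1.35 (SE). It was 0.46 without dyW1 and −1.74 without the library labelled dyW3. *Hspb6* (Hsp20) was at 21.3, 37.8, 18.5 and 25.2 in WT and at 6.63, 4.55 and 0 in dyW, the 1 gene of the 6 tested that passed at 0.05 (log2 fold change −2.89 ± 0.87 SE, adjusted *P*-value 0.0338, limma), and its WT reads were 1.33 times the receptor level. It missed 0.05 without any 1 of the WT libraries (0.0553 to 0.124, limma). With that level subtracted its log2 fold change was −0.94 (adjusted *P*-value 0.685, limma). *Hspb7* and *Hspb8*, both of heart and skeletal muscle, had log2 fold changes of −2.47 ± 1.15 and −1.23 ± 1.37 (SE) and overlapped between groups. *Hspb2* shares its promoter region and overlaps with *Cryab*, another small Hsp gene, and had a log2 fold change of −0.52 ± 1.13 (SE). *Hspb11*, which despite its name works in the transport of cilia, was at 0.35 ± 0.80 (SE), and *Hspb3* was below the filter. The family median of −0.95 changed sign with the same total (0.03) and with quantile normalization (0.10). By limma 0 of the 6 genes were called, by voom 0, and 1 was lower at an unadjusted *P*-value under 0.05, against 41.5% of all genes.

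None of the 6 *Bag* genes, which encode exchange factors with a shared Bag domain, was called by limma or voom, and 0 had an unadjusted *P*-value under 0.05, against 2.81% of all genes higher and 41.5% lower. Those shares became 11.7% and 8.77% with the filter at a mean of 50. *Bag3*, which with *Hspb8* directs damaged Z-disc proteins to autophagy, was at 107, 18.9, 16.4 and 22.0 normalized counts in WT and at 175, 8.60 and 58.1 in dyW. The highest values of the groups were in WT1 and dyW1, and the log2 fold change was 0.61 ± 1.10 (SE), with −0.35 without dyW1 and 1.75 without dyW2. *Bag1* had the highest WT level per kb of the family (58.0), at 37.3 to 529 in WT and 66.3 to 562 in dyW, and the log2 fold changes of the family ranged from −1.59 for *Bag4* to 1.06 for *Bag5*.

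A list of 38 other genes of the chaperone machinery and its regulators was set beside these families. By limma 0 were called higher and 1 lower (2.63%), against 0.0659% and 18.7% of all genes, and voom called 0 higher and 1 lower. At an unadjusted *P*-value under 0.05, 4 were higher and 6 lower, against 2.81% and 41.5% of all genes. *Hsf1*, the factor that induces heat shock genes, was at 28.3 to 59.3 normalized counts in WT and 17.6 to 56.5 in dyW (log2 fold change −0.61, adjusted *P*-value 0.519, limma). The gene called lower was *Hsf4*, the heat shock factor of the lens, at 6.29 to 32.0 in WT and at 0 in all dyW libraries. It passed the filter through WT alone, so that the filter fixed its direction, and its 21 WT reads were 1.25 times the receptor level. At 0.05 *Ahsa2*, a relative of the Hsp90 activator *Ahsa1*, was higher, at 10.3 to 27.0 in WT and 45 to 79.8 in dyW (log2 fold change 2.0, adjusted *P*-value 0.0445, limma), though not without any 1 of the WT libraries or dyW2 (0.0674 to 0.125). The 22 WT reads of *Ahsa2* were 0.363 times the receptor level. *Sgta*, a co-chaperone of tail-anchored proteins, and *Grpel2*, an exchange factor of mitochondrial Hsp70, were lower, with log2 fold changes of −2.21 and −4.23 (adjusted *P*-values 0.0163 and 0.0151, limma), but missed 0.05 without WT2 (0.0612 and 0.0517), and *Grpel2* without WT4 (0.0610). Their WT reads were 2.92 and 1.46 times the receptor level. Hsp90 partners *Cdc37*, *Stip1* and *Ptges3* had log2 fold changes of −0.84, 0.22 and 0.83, none past the test. The myosin chaperone *Unc45b* and the myosin-binding methyltransferase *Smyd1*, both of striated muscle, were at −2.60 and −2.94 (adjusted *P*-values 0.0808 and 0.0599, limma). In 16 immediate early genes, 0 were called in either direction by limma or voom, and 1 was higher and 0 lower at an unadjusted *P*-value under 0.05, against 2.81% and 41.5% of all genes (11.7% and 8.77% with the filter at a mean of 50). The sum of the list was 2325 to 12208 in WT and 2858 to 15534 in dyW. *Klf6*, a zinc finger factor, passed at 0.05, at 197, 113, 265 and 94.4 normalized counts in WT and 1550, 408 and 643 in dyW (log2 fold change 2.26, adjusted *P*-value 0.0240, limma), but not without WT2, WT4 or dyW1 (0.0758 to 0.0780).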

How the data were processed

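RNA from muscle fibers was measured in 4 WT and 3 dyW libraries, 1 per fetus. The authors used Cutadapt to trim, STAR to align to GRCm39 and FeatureCounts to assign unique reads to genes, and deposited counts divided by DESeq2 size factors (normalized counts); versions, annotation release and strand setting are not given in the sources used here. A deposited table of fold changes and *P*-values was not used. Within each library 100% of values were whole multiples of 1 step (within 0.01 reads), which gave the reads. Gene models and exon lengths came from GENCODE mouse release 39, which held 99.2% of the genes and all 83 chaperone genes; levels per kb used the canonical transcript. Genes with a mean of at least 5 normalized counts were compared on log2(normalized count + 1) by limma's lmFit and trended eBayes (limma 3.58.1, R 4.3.3) with Benjamini-Hochberg adjustment. The script was tested on simulated data. The median log2 fold change of all genes was −3.26, −1.99 and −0.799 with pseudocounts of 0.1, 1 and 10. It was 0.918 with the receptor level subtracted, so decreases of low genes in dyW may be understated or overstated. Ratios were tested by exact permutation, two-sided, over 35 arrangements. Genes named are a list of chaperones of known function, those called, and those past 0.05 without overlap. *Dnaja4*, *Dnajb2*, *Dnajb12*, *Dnajb14*, *Dnajc2*, *Hspa12a*, *Hspa12b*, *Hspa14*, *Hspa4l*, *Hspb11*, *Cct6b*, *Hspb3*, *Dnajb3*, *Dnajc30* and the genes of the other lists were named after their values were seen. The rule on symbols that gave the 83 genes uses no expression value, but it and the lists were chosen with earlier results of these data known. Alternatives were other pseudocounts (0.1 and 10), filters (none, 50), scalings, a replicate block, subtraction of the receptor level and each library left out; voom on the recovered reads and leaving out WT1 with dyW1 were chosen after seeing the data. Python 3.11.15, numpy 2.4.6, pandas 2.3.3 and matplotlib 3.10.9 were used. The p-values measure the spread between fetuses.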

Additional observations from a re-analysis of the deposited data

Results flagged for a closer look

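In groups of 4 libraries, 1 library was set apart when its gap to the nearest other, as a share of the range, passed Dixon's critical value, which chance does in about 5% of groups; 58 groups of WT values were examined and 6 stood out. WT3 stood above the other WT libraries for *Hspa8* (4304 normalized counts), *Hspa5* (4004), *Cct7* (845) and *Hspd1* (207). WT3 also had the largest myofiber sum (96936). WT1 stood above the others for *Bag3* (107 normalized counts) and for the ratio of *Hspd1* to *Hspe1* (3.60, from 18 and 5 reads).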

How the results depend on the processing

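Against 2 chaperone genes called higher and 4 called lower, an adjusted *P*-value under 0.05 gave 6 and 8. Pseudocount 10, a mean of at least 50, the same total, quantile normalization, the replicate block, receptor level subtraction, and WT1 with dyW1 left out each gave 0 and 0 (limma), with 7 to 26 higher and 0 to 13 lower at an unadjusted *P*-value under 0.05; over all genes tested these settings called 0 higher and 0 to 2 lower, so the 0 is not particular to chaperones. No filter gave 1 higher, voom 0 higher and 4 lower, with *Dnajc5g* in place of *Dnajc6* (adjusted *P*-value 0.0756). Leaving out 1 library gave 0 to 1 higher and 0 to 3 lower: 0 lower without WT2, WT4 or dyW2, 1 without WT1 or dyW1, and 3 without WT3 or the library labelled dyW3. With 1 library left out, the log2 difference of the ratio of *Hspa1a* and *Hspa1b* to *Hspa8* ranged from −0.94 to 0.49 and changed sign without WT1 (0.39), WT4 (0.04) or dyW2 (0.49), and that of *Hspa5* to *Hspa8* ranged from −0.29 (without dyW1) to 0.88. *Bag4* changed sign by more than its SE with the receptor level subtracted (1.70). The replicate numbers did not pair the samples (correlations of same-numbered libraries 0.147, −0.0494 and −0.0880). The cause of these changes was not tested. WT depth limits values under 100 normalized counts, where 1 read in WT1 is worth 5.33.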
